A study of Mus musculus with 8 samples.

Results

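The B7 ligands and inhibitory checkpoint molecules that a dendritic cell offers to T cells were examined as a group of 10 genes, chosen by name from the 31053 genes of the deposited count table. The 10 were the costimulatory ligand genes Cd80, Cd86 and Icosl, the PD-1 ligand genes Cd274 (PD-L1) and Pdcd1lg2 (PD-L2), Vsir (VISTA), Havcr2 (TIM-3) and Lgals9 (galectin-9), Lag3, and Tnfrsf14 (HVEM). All 10 had a row in the table and all 10 passed the filter on low counts. The samples were conventional dendritic cells (cDCs) of mouse spleen in 2 genotypes, 4 CKO libraries (D146, D149, D163 and D169) and 4 wild-type (WT) libraries (D142, D150, D154 and D164). Both genotypes received the same stimulus: cells enriched to about 20% dendritic cells were cultured for 9 h in 100 nM CpG-B, a synthetic oligonucleotide that activates Toll-like receptor 9, before sorting of the cells that were Lin-, MHC II+ and CD11c+. The labels give the mutant genotype only as CKO and state neither the deleted gene, nor the line that deletes it, nor the age of the mice, so no targeted gene was checked. No unstimulated cells were among the samples, so every value below is a level after stimulation.

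B7 proteins are cell-surface ligands of the immunoglobulin family through which antigen-presenting cells set the outcome of antigen recognition. CD80 and CD86 deliver the second signal through CD28 and are bound more tightly by the inhibitory receptor CTLA-4, and ICOSL acts on the related receptor ICOS. PD-L1 and PD-L2 both bind PD-1 and dampen T cells, while VISTA, galectin-9 with its receptor TIM-3, LAG-3, which binds MHC class II, and HVEM, which binds BTLA, form further inhibitory pairs. Activated dendritic cells are known to raise both the activating and the inhibitory ligands.

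Library totals ran from 25304765 to 40950088 counts. CPM below are counts scaled to a common library size by the TMM method. CKO and WT lay apart on the first principal component of log2 CPM (36% of variance), and CKO D149 lay at the far end of the second (19%). CKO D149 was also the highest CKO library for 8 of the 10 members, and CKO D163 was the lowest for 5 of them. The cDC genes Flt3 and Zbtb46 were present in every library, at 98.6 to 139 and 227 to 337 CPM in CKO and at 92.7 to 121 and 223 to 278 CPM in WT. Of the markers of other cells, the summed level of 10 B cell markers was 26.9 to 121 CPM in CKO and 25.4 to 49.7 CPM in WT, with 4 of the 10 under 1 CPM in all libraries, and that of 12 macrophage and monocyte markers was 57.6 to 123 CPM in CKO and 121 to 167 CPM in WT. Of 7 B cell markers tested, 1 was higher by edgeR (Ms4a1), 5 were higher at an unadjusted p under 0.05 and 2 by DESeq2, and the median log2 fold change was 1.31 with 0 negative. Of 11 macrophage and monocyte markers, 2 were lower by edgeR (Spic and Fcgr1), 2 at an unadjusted p under 0.05 and 2 by DESeq2, and the median was -0.61 with 11 negative. No marker was called by edgeR among 6 cDC and 8 cDC1 markers (0 at an unadjusted p under 0.05, 0 by DESeq2). Of 7 cDC2 markers, 1 was higher by edgeR (Cd4), 2 at an unadjusted p under 0.05 (Cd4 and Irf4) and 1 by DESeq2. The median log2 fold change was 0.23 with 2 negative. Over all genes tested, edgeR called 4.57% lower and 4.3% higher. At an unadjusted p under 0.05 in edgeR, 13.2% of all genes were lower and 15.4% higher. DESeq2 called 16.4% of all genes in either direction. The summed level of 9 cDC2 markers was 240 to 375 CPM in CKO and 185 to 312 CPM in WT, of which Irf4 made up 175 to 304 and 114 to 222 CPM. Of 8 neutrophil markers, 4 had 0 counts in all libraries and the sum was 0 CPM in CKO and at most 2.62 CPM in WT. The part of these cells in the results below was not tested. In sorted bulk samples, fewer cells of a type and less RNA per cell cannot be told apart.

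In CKO cells 2 inhibitory members fell, Lag3 to 0.413 times and Pdcd1lg2 to 0.613 times the WT level, and the other 8 members did not pass the test. The costimulatory ligands Cd80 and Cd86 and the more abundant PD-1 ligand gene Cd274 were among these, with log2 fold changes of -0.08, -0.20 and -0.10. Lgals9 had a lower value in every CKO library than in any WT library but just missed the threshold, and Vsir was the one member whose CKO libraries all lay above the WT libraries. Genes were tested with the quasi-likelihood F test of edgeR, at a threshold of 0.05 for the p adjusted over 11702 genes. By that test 2 of the 10 members were lower, against 4.57% of all genes tested, and 0 of the 10 were higher, against 4.3%. The unadjusted p was under 0.05 for 3 members that were lower and for 1 that was higher, against 13.2% and 15.4% of all genes. DESeq2 called 3 members, Lag3, Pdcd1lg2 and Lgals9, all lower, where it called 16.4% of all genes. The number of members called by edgeR was 0 without CKO D163, WT D150 or WT D154 and with the cDC1 minus cDC2 marker covariate (background 0.592%, 0.69%, 1.16% and 0%). It was 1 without CKO D169 or with the B cell marker covariate (3.86% and 3.06%) and 3 without CKO D149 or WT D164 (11.2% and 12.4%). The groups did not overlap for 4 of the 10 members, against 15.9% of all genes tested, 3 with CKO below WT (8.09% of all genes) and 1 above (7.85%). The log2 fold change was negative for 8 of the 10 (5 with total-count scaling), against 47% of all genes, and its median was -0.15, beside 0.03 over all genes tested.

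**Figure D1:**
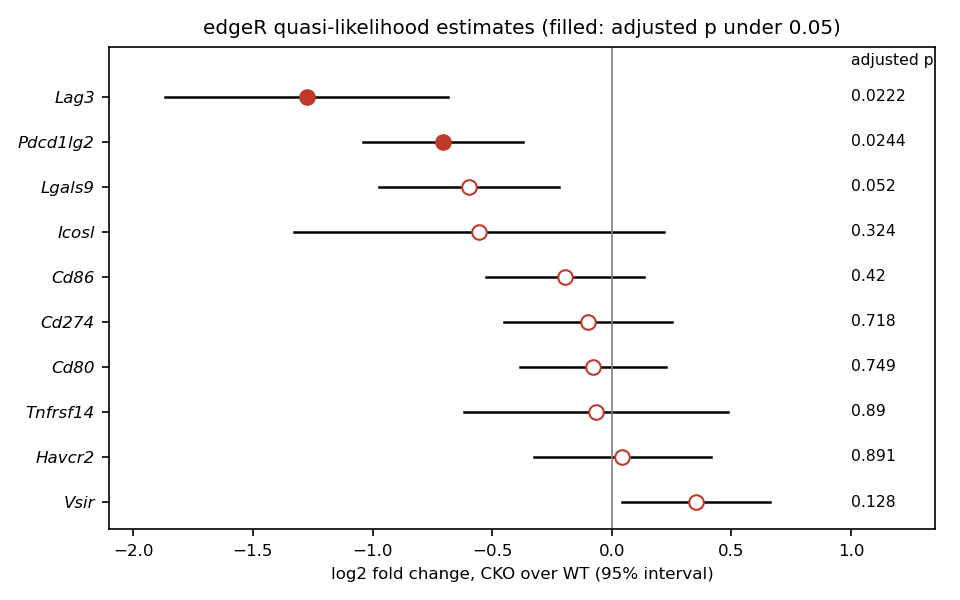
The log2 fold change of each member, CKO over WT, is plotted on the horizontal axis with its 95% interval, ordered from the lowest at the top; filled points passed the edgeR test, and adjusted p-values stand at the right. Lag3 (-1.28) and Pdcd1lg2 (-0.71) are filled, and the interval of Lgals9 also lies below 0.

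The 10 genes differed widely in abundance. Levels are compared here as CPM per kb of gene length, because a longer transcript gives more reads. Cd86 stood highest, at 645 ± 126 CPM per kb in CKO and 738 ± 61.1 in WT (mean ± SD, n = 4 each). Cd274 followed at 393 ± 75.4 CPM per kb in CKO and 422 ± 58.0 in WT, with Lgals9 at 320.4 ± 51.6 in CKO and 485 ± 104 in WT, and the ranges of Cd274 and Lgals9 overlapped in both genotypes. Cd80 and Pdcd1lg2 came next and overlapped in CKO, at 138 ± 24.3 and 121 ± 16.5 CPM per kb. In WT, Pdcd1lg2 stood at 162 to 236 and Cd80 at 136 to 160 CPM per kb, so that their ranges nearly met. Whether the ranges of this pair overlapped depended on the length used. The deposited table gives Pdcd1lg2 1645 bases, and with the 1961 exonic bases of GENCODE M21 its WT range of 136 to 198 CPM per kb overlapped that of Cd80, while its CKO range of 80.7 to 110.0 lay below the CKO range of Cd80, 112 to 168. Havcr2 stood at 22.9 ± 4.84 CPM per kb in CKO and 22.2 ± 3.99 in WT. Vsir and Icosl were both under 15 CPM per kb, and the lowest pair, Tnfrsf14 and Lag3, stood at 2.10 ± 0.222 and 1.12 ± 0.400 CPM per kb in CKO and at 2.19 ± 0.612 and 2.73 ± 0.550 in WT. The ranges of Tnfrsf14 and Lag3 overlapped in WT and did not overlap in CKO.

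**Figure D2:**
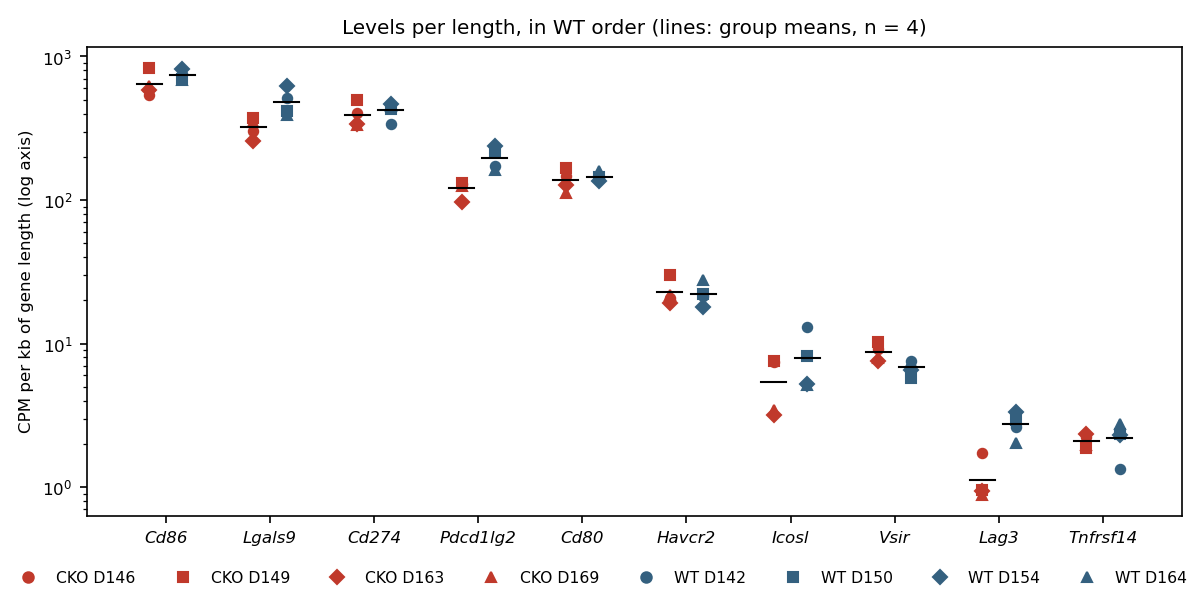
CPM per kb of deposited gene length is shown on a log axis for each member, in the order of the WT means, with CKO libraries left of WT libraries and lines at the group means (n = 4); marker shapes only tell the libraries of a group apart. Cd86 lies at the top (645 in CKO and 738 in WT) and Tnfrsf14 and Lag3 at the bottom.

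Cd80 and Cd86, the ligands of CD28 and CTLA-4, lie on chromosome 16 (mm10, 38455561 to 38496335 and 36603869 to 36666081). Cd80 stood at 540.1, 623, 469 and 415 CPM in CKO D146, D149, D163 and D169 and at 531, 533, 504.5 and 594 CPM in WT D142, D150, D154 and D164. The WT libraries of Cd80 lay within the spread of the CKO libraries. Its log2 fold change was -0.08 ± 0.14 (SE) with a 95% interval from -0.38 to 0.23 (edgeR adjusted p = 0.749). Cd86 stood at 1978, 3026, 2141 and 2295 CPM in the CKO libraries and at 2753, 2557, 2997 and 2503 CPM in the WT libraries. CKO D149 was the highest of all 8 libraries and the other 3 CKO libraries were below every WT library. The log2 fold change of Cd86 was -0.20 ± 0.15 (SE) with an interval from -0.53 to 0.14 (edgeR adjusted p = 0.42). Without CKO D149 it was -0.34 (adjusted p = 0.094) and without CKO D146 it was -0.12. With the B cell marker covariate it was -0.06, and with the cDC1 minus cDC2 covariate -0.03. Within a library, Cd80 per length amounted to 21.7 ± 3.85 for each 100 of Cd86 in CKO and to 19.9 ± 2.85 in WT (mean ± SD, n = 4 each), and the groups overlapped.

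Icosl, whose product engages ICOS on activated T cells, lies on chromosome 10 (78069302 to 78083913). It stood at 34.3, 34.6, 14.6 and 15.8 CPM in CKO D146, D149, D163 and D169 and at 60.45, 37.9, 24.2 and 23.7 CPM in WT D142, D150, D154 and D164. Each group was widely spread, and the upper CKO pair lay above the lower WT pair. The log2 fold change was -0.56 ± 0.35 (SE) with an interval from -1.33 to 0.22 (edgeR adjusted p = 0.324), the widest interval of the 10 members. It was -0.21 without WT D142, -0.35 without CKO D163 and -0.76 without CKO D149, and no fit called it. The receptor gene Icos, a T cell gene, was itself detected at 21.7 ± 4.33 CPM in CKO and 29.7 ± 3.17 CPM in WT (edgeR adjusted p = 0.0976).

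Cd274 and Pdcd1lg2 are neighbours on the plus strand of chromosome 19 (mm10, 29367455 to 29388095 and 29410919 to 29471157), with 22824 bases between them. Their promoter windows are shown because the genes share a receptor and a locus and only Pdcd1lg2 passed the test. Whether the changes of these genes differed from each other was not tested. The windows are from RefSeq on GRCm38.p6, the assembly that mm10 names, and run from 250 bases before to 50 bases after the start, 5′ to 3′ on the gene's strand. Capitals mark matches to the letters GAAANNGAA, the core of the interferon-stimulated response element, on either strand. Both are on chromosome 19, at chr19:29367188-29367487 and chr19:29410669-29410968.
Cd274: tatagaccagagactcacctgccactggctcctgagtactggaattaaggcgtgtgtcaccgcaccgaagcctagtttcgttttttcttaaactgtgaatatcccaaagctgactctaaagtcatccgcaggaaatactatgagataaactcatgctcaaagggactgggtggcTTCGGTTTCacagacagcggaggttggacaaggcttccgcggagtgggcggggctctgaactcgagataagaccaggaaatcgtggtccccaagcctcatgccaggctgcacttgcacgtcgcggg
Pdcd1lg2: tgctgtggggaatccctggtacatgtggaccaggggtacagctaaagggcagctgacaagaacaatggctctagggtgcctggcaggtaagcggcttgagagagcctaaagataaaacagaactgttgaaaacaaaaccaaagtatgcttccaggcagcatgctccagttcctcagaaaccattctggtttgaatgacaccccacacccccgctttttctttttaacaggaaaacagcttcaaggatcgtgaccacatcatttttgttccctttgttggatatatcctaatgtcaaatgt

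The Cd274 window held 1 match, on the opposite strand, which began 76 bases before the start, and the Pdcd1lg2 window held none. These letters occurred in 8.56% of the 32851 promoter windows of this length. Matches to TTCNNNGAA, the interferon-gamma-activated (GAS) element, and to GGANTTTCC, a kappa-B-like sequence, were searched on both strands and were found in neither window, against 8.3% and 1.25% of all windows. A match is a description of the sequence, and a window without one says only that these letters are not in it.

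Cd274 stood at 1467, 1796, 1230 and 1209 CPM in CKO D146, D149, D163 and D169 and at 1227, 1550, 1698 and 1639 CPM in WT D142, D150, D154 and D164. The groups overlapped over nearly their whole range. Cd274 had a log2 fold change of -0.10 ± 0.16 (SE) with an interval from -0.45 to 0.25 (edgeR adjusted p = 0.718). Pdcd1lg2, whose expression is more restricted to dendritic cells and macrophages than that of Cd274, stood at 213, 216, 158 and 207 CPM in the CKO libraries and at 285, 357, 388 and 266 CPM in the WT libraries. Every CKO library lay below every WT library, and CKO D163 was the lowest. Pdcd1lg2 fell with a log2 fold change of -0.71 ± 0.15 (SE) and an interval from -1.04 to -0.37 (edgeR adjusted p = 0.0244). The call was lost without CKO D163 (edgeR adjusted p = 0.0821), without WT D150 (0.0848) and without WT D154 (0.0764), where the log2 fold changes were -0.59, -0.66 and -0.61. It was also lost with B cell markers as a covariate, where the log2 fold change was -0.67 (adjusted p = 0.0799), and with the difference of cDC1 and cDC2 markers as a covariate, where the log2 fold change was -0.44 (adjusted p = 0.319).

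A ratio within a library does not depend on how libraries are scaled. For each 100 of Cd274, per length, Pdcd1lg2 amounted to 32.0, 26.5, 28.3 and 37.7 in the CKO libraries and to 51.1, 50.7, 50.3 and 35.7 in the WT libraries. WT D164 lay among the CKO libraries and the other 3 WT libraries lay above all of them. The mean log2 ratio was -1.70 ± 0.22 in CKO and -1.11 ± 0.25 in WT (mean ± SD, n = 4 each), a difference of -0.59.

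The flanks of the locus were read from the same fit. Plgrkt, which encodes a plasminogen receptor, is transcribed away from Cd274, and begins 65 bases before it. The start of Plgrkt is inside the Cd274 window printed above, and the interferon-element match lies 20 bases into Plgrkt. Plgrkt stood at 86.0, 96.2, 73.2 and 86.2 CPM in the CKO libraries and at 162, 182, 162 and 127 CPM in the WT libraries, with no overlap. It fell with a log2 fold change of -0.89 ± 0.14 (SE; edgeR adjusted p = 0.0114), and it was called in 18 of the 19 alternative fits. Beyond Pdcd1lg2, the antisense RNA gene A930007I19Rik stood at 4.42 ± 1.13 CPM in CKO and 4.71 ± 0.192 CPM in WT (edgeR adjusted p = 0.819). Cd274 thus stood, without a called change, between genes on each side that fell. None of Plgrkt, Cd274 and Pdcd1lg2 shared exonic bases with its neighbours.

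Lag3, on the minus strand of chromosome 6 (124904361 to 124911705), encodes a receptor of the CD4 family best known from activated T cells, NK cells and plasmacytoid dendritic cells. It stood at 3.63, 2.00, 1.99 and 1.85 CPM in CKO D146, D149, D163 and D169 and at 5.51, 6.17, 7.06 and 4.31 CPM in WT D142, D150, D154 and D164. No CKO library reached the lowest WT library, and CKO D146 stood above the other CKO libraries. Those values rested on 133, 53, 68 and 50 counts in CKO and on 133, 243, 239 and 131 counts in WT. Lag3 fell with a log2 fold change of -1.28 ± 0.27 (SE) and an interval from -1.87 to -0.69 (edgeR adjusted p = 0.0222). The call was lost without CKO D163 (edgeR adjusted p = 0.0785), CKO D169 (0.0507), WT D150 (0.0771) or WT D154 (0.0732) and with the cDC1 minus cDC2 covariate (0.198), with log2 fold changes between -1.31 and -1.17. With each library's dependence on GC content and gene length taken out, the log2 fold change was -0.92 (adjusted p = 0.0329), and Lag3 had the highest transcript GC content of the 10 members, 59.25%.

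Genes listed as markers of the cells in which Lag3 is best known were detected beside it, at uneven levels within each list. The summed level of 9 plasmacytoid markers was 532 to 754 CPM in CKO and 700 to 1050 CPM in WT, of which Bst2, also an interferon-stimulated gene, made up 360.5 to 583 and 587 to 900.0 CPM. Siglech, a defining marker of these cells, was at 1.21 CPM or less in every library. The 8 NK cell markers summed to 269 to 532 CPM in CKO and 347 to 519 CPM in WT. Klrk1 made up 137 to 187 CPM of this in CKO and 165 to 220 CPM in WT, and Klrb1c was at 1.48 CPM or less. Gzma, Nkg7, Prf1 and Ncr1 were at 40.1 to 126.5, 36.5 to 118.7, 26.3 to 64.7 and 18.3 to 35.6 CPM in CKO. In WT these genes were at 51.6 to 108.7, 49.95 to 99.7, 30.9 to 50.7 and 25.2 to 38.9 CPM. Eomes and Klre1 were at 3.51 to 10.7 CPM over all libraries. The 10 T cell markers summed to 36.0 to 79.2 CPM in CKO and 28.3 to 52.0 CPM in WT. Of these 3 lists, 2 plasmacytoid markers were lower (Bst2 and Pacsin1) and 2 higher (Cox6a2 and Ly6d), none of 8 NK cell markers passed in edgeR (0 at an unadjusted p under 0.05, 0 by DESeq2) and 1 of 9 tested T cell markers was higher (Trac). At an unadjusted p under 0.05, 4 T cell markers were higher, DESeq2 called 3 higher, and the median log2 fold change of the list was 0.42. Over all genes, edgeR called 4.57% lower and 4.3% higher, and DESeq2 called 16.4% in either direction. At an unadjusted p under 0.05 in edgeR the shares were 13.2% lower and 15.4% higher. The part of these cells in the Lag3 result was not tested.

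On the chromosome, Lag3 stands between Cd4 and Ptms, the parathymosin gene, and shares exonic bases with neither. Ptms, 1976 bases away, stood at 37.2, 43.2, 28.5 and 33.0 CPM in the CKO libraries and at 81.7, 66.9, 71.9 and 51.7 CPM in the WT libraries. It fell with a log2 fold change of -0.94 ± 0.17 (SE; edgeR adjusted p = 0.0144). Cd4 stood at 0.983, 0.566, 1.61 and 1.11 CPM in the CKO libraries and at 0.414, 0.127, 0.354 and 0.164 CPM in the WT libraries, and rose with a log2 fold change of 2.04 ± 0.48 (SE; edgeR adjusted p = 0.0291). The Cd4 values rested on only 36, 15, 55 and 30 counts in CKO and on 10, 5, 12 and 5 counts in WT. Cd4 was thus higher where Lag3 and Ptms were lower, and it was called in 12 of 18 alternative fits. Cd4 is also one of the 7 tested genes of the cDC2 list that enter the cDC1 minus cDC2 covariate. Sirpa and Irf4 of the cDC2 list and Batf3 and Irf8 of the cDC1 list enter it too and are also genes of the pathway lists below. The scarce cDC1 genes Xcr1 and Clec9a, at 13 to 45 counts per library, enter it as well. Each gene weighs alike in this covariate, a mean of log2 CPM, so Cd4 enters with few counts and a called difference. How much of the covariate's difference between genotypes came from Cd4 was not tested.

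**Figure D3:**
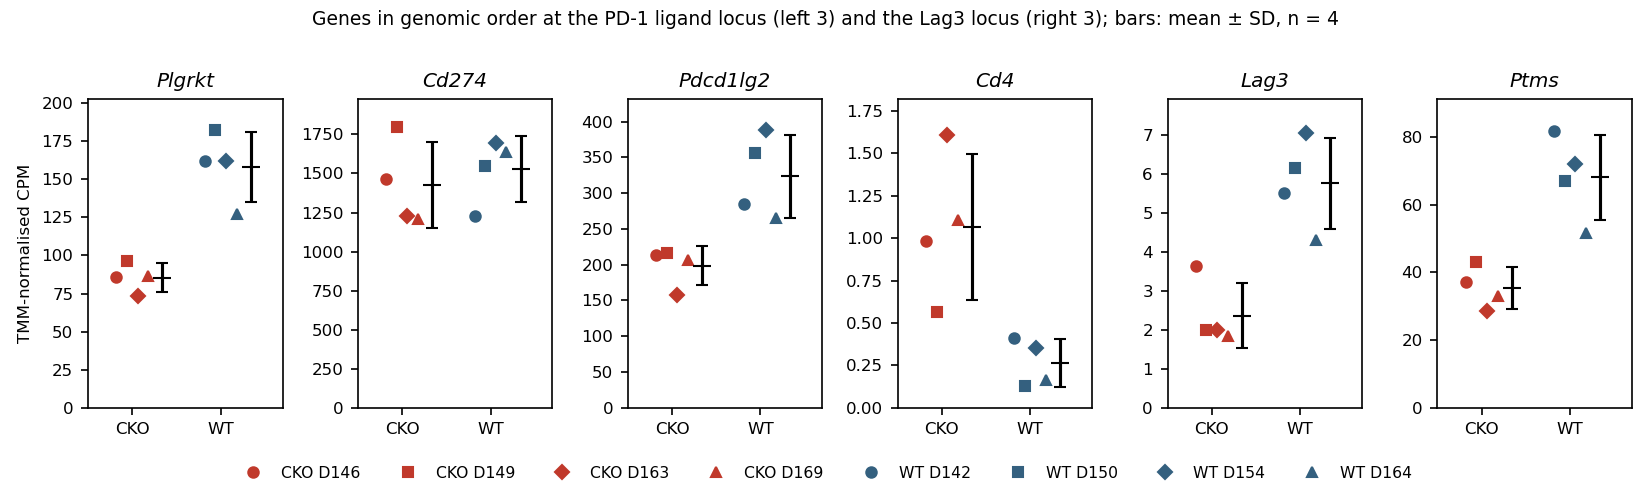
TMM-normalised CPM in each CKO and WT library is shown for genes in genomic order at the PD-1 ligand locus (Plgrkt, Cd274, Pdcd1lg2) and at the Lag3 locus (Cd4, Lag3, Ptms), each on its own axis from 0, with mean ± SD (n = 4); marker shapes only tell the libraries of a group apart. The groups overlap for Cd274 (1425 CPM in CKO and 1528 CPM in WT on average) and are apart for the other 5 genes, with Cd4 the one that is higher in CKO.

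Havcr2 and Lgals9 encode the receptor TIM-3, which restrains dendritic cells as well as T cells, and galectin-9, a secreted lectin that binds it. Both lie on chromosome 11 (46454935 to 46481255 and 78962974 to 78984946). The Lgals9 window is shown because it held more interferon-element cores than any other member's window, 2, which began 54 bases before and 16 bases after the start, both on the opposite strand. It lies at chr11:78984875-78985174 on the minus strand (GRCm38.p6, RefSeq), written 5′ to 3′ on the gene's strand with the matches in capitals.
Lgals9: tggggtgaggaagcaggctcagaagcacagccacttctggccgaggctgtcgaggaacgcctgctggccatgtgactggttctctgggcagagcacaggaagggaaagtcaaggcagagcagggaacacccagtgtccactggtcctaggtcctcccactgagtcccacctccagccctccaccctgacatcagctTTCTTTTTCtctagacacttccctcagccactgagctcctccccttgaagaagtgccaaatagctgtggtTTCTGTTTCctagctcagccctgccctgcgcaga

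Of the 8 members with a window, the core was found in 3, Cd274, Lgals9 and Tnfrsf14. Neither the GAS nor the kappa-B-like letters were found in any of the 8. The promoter set used here held no window for Cd86 or Lag3, so neither gene was searched.

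Lgals9 stood at 647, 793, 547 and 752 CPM in CKO D146, D149, D163 and D169 and at 1089, 893.5, 1325 and 834 CPM in WT D142, D150, D154 and D164. All CKO libraries lay below all WT libraries, with CKO D149 and WT D164 closest to each other. The log2 fold change was -0.60 ± 0.17 (SE) with an interval from -0.97 to -0.22, and the adjusted p of 0.052 in edgeR missed the threshold. Lgals9 passed in 6 of 19 alternative fits, among them DESeq2 (adjusted p = 0.014), limma-voom (0.0484) and the fit without CKO D149 (0.0432), and with the cDC1 minus cDC2 covariate its log2 fold change was -0.23 (adjusted p = 0.613). Havcr2 stood at 56.2, 81.6, 52.3 and 59.2 CPM in the CKO libraries and at 57.9, 60.4, 48.65 and 74.85 CPM in the WT libraries. The groups overlapped throughout, with a log2 fold change of 0.04 ± 0.17 (SE) and an interval from -0.33 to 0.41 (edgeR adjusted p = 0.891). The sign of this value was negative without CKO D149, without WT D154 and with the GC and length correction. For each 100 of Lgals9, per length, Havcr2 amounted to 7.15 ± 0.825 in CKO and to 4.85 ± 1.77 in WT (mean ± SD, n = 4 each), and WT D164, at 7.05, lay among the CKO libraries.

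Vsir encodes VISTA, an inhibitory B7-like protein of myeloid cells that acts as ligand and as receptor. It lies on the plus strand of chromosome 10 (60346851 to 60372684) inside the span of Cdh23 on the other strand, without shared exonic bases, and Cdh23 stood at 0.880 ± 0.207 CPM in CKO and 0.780 ± 0.383 CPM in WT. Vsir stood at 45.7, 50.9, 37.97 and 39.8 CPM in CKO D146, D149, D163 and D169 and at 37.95, 28.6, 32.6 and 37.4 CPM in WT D142, D150, D154 and D164. The CKO libraries all lay above the WT libraries, with CKO D163 and WT D142 nearly level. Vsir had a log2 fold change of 0.35 ± 0.14 (SE) with an interval from 0.04 to 0.66 and an unadjusted p of 0.0286, and the adjusted p of 0.128 in edgeR did not pass. Vsir passed in 1 of 19 alternative fits, total-count scaling (log2 fold change 0.51, adjusted p = 0.0399), which moved the median over all genes from 0.03 to 0.19.

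Tnfrsf14, the HVEM gene, whose product inhibits T cells through BTLA and stimulates them through LIGHT, lies on chromosome 4 (154921933 to 154928563). It stood at 3.195, 2.68, 3.37 and 2.82 CPM in CKO D146, D149, D163 and D169 and at 1.91, 3.38, 3.34 and 3.98 CPM in WT D142, D150, D154 and D164. The CKO libraries lay within the range of the WT libraries. Tnfrsf14 had a log2 fold change of -0.07 ± 0.25 (SE) with an interval from -0.62 to 0.49 (edgeR adjusted p = 0.89). The partner gene Btla, an inhibitory receptor gene that dendritic cells also express, stood at 156 ± 16.6 CPM in CKO and 134 ± 25.3 CPM in WT (edgeR adjusted p = 0.342).

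**Figure D4:**
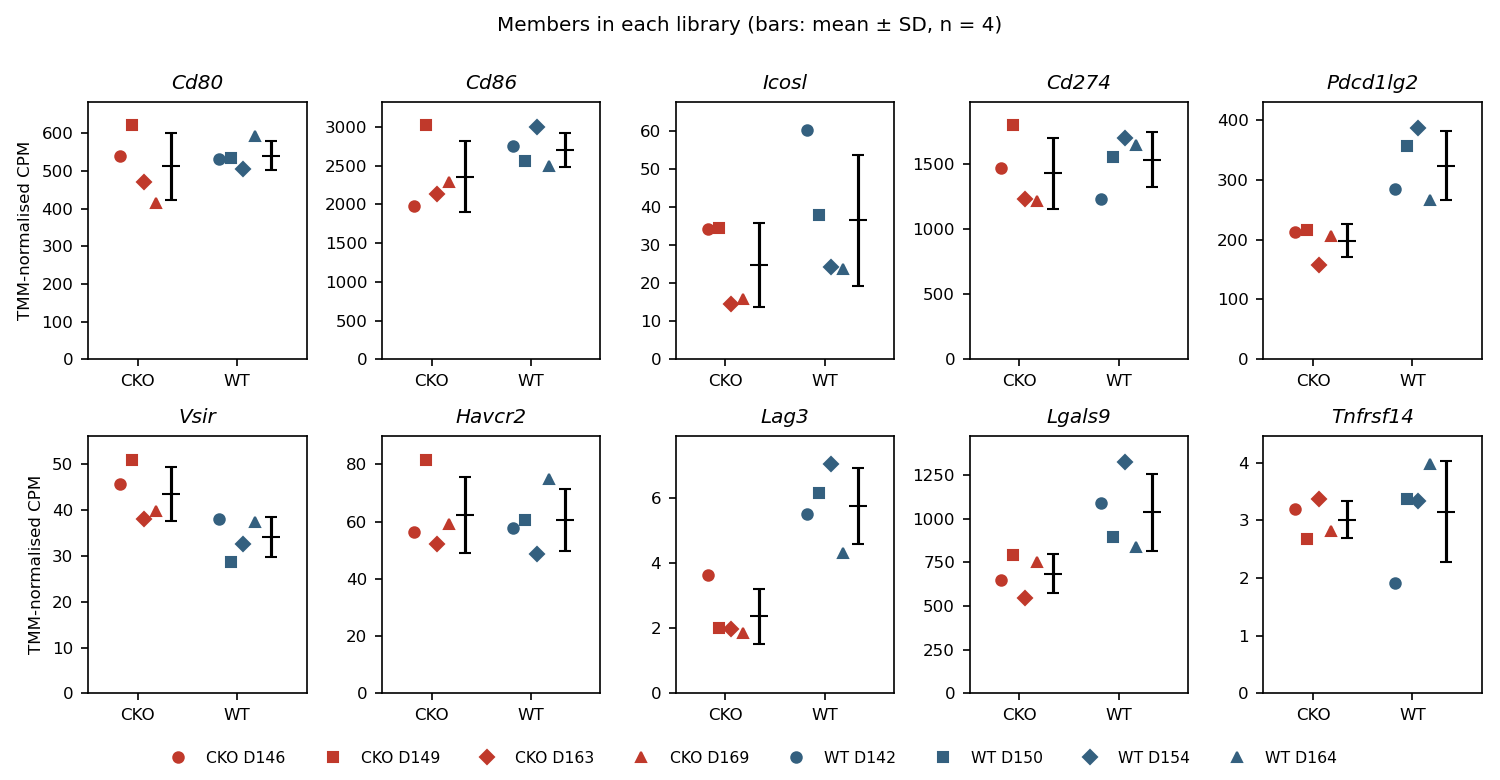
TMM-normalised CPM of the 10 members is shown in each CKO and WT library, each gene on its own axis from 0, with mean ± SD (n = 4); marker shapes only tell the libraries of a group apart. The groups are apart for Pdcd1lg2, Lag3 and Lgals9, with CKO lower, and for Vsir, with CKO higher and its nearest libraries at 37.97 CPM in CKO and 37.95 CPM in WT; CKO D149 (red square) is the top CKO library in 8 panels.

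Genes that act on the members' pathway were read from the same fit as lists. Of 9 further B7 and butyrophilin-related ligand genes in the table, none passed the filter on low counts and 3 had 0 counts in all libraries, so none was tested. Cd276, the B7-H3 gene, stood at 0.302 CPM or less in CKO and 0.768 CPM or less in WT. Of 18 receptors and binding partners of the members, 17 were tested, 1 rose (Cd4, described above), none fell and 16 did not pass, with a median log2 fold change of -0.08 beside 0.03 over all genes. The background share called in either direction was 8.87%. Pdcd1, the gene of the receptor PD-1, stood at 5.09 ± 1.62 CPM in CKO and 5.42 ± 2.29 CPM in WT, and Cd28 at 3.09 ± 1.16 CPM in CKO and 1.74 ± 0.389 CPM in WT. At an unadjusted p under 0.05 in edgeR, 2 of the list were lower and 4 higher, against 13.2% and 15.4% of all genes. DESeq2 called 1 lower, Selplg, whose product PSGL-1 binds VISTA (1224 ± 199 CPM in CKO and 1680 ± 197 CPM in WT), and 1 higher, Cd4. The share of all genes that DESeq2 called was 16.4%. By edgeR, 4 genes of the list were called without CKO D149 (Cd28, Cd4, Hmgb1 and Icos) and none without CKO D163, CKO D169, WT D150 or WT D154.

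Among 18 genes of the nectin, CD200 and CD47 axes, the median log2 fold change was -0.21. Of the 18, 1 fell, none rose and 17 did not pass, where 8.87% of all genes tested were called. The 1 was Nectin2, which encodes a ligand of the checkpoint receptors TIGIT and PVRIG. Nectin2 stood at 9.86, 8.20, 7.23 and 7.90 CPM in CKO D146, D149, D163 and D169 and at 27.01, 21.8, 34.65 and 16.3 CPM in WT D142, D150, D154 and D164. The groups did not overlap, and the CKO libraries were closely grouped. Nectin2 fell with a log2 fold change of -1.59 ± 0.22 (SE; edgeR adjusted p = 0.01001), and it was called in 18 of 19 alternative fits, all but the one with the cDC1 minus cDC2 covariate (adjusted p = 0.137). Pvr, the related ligand of TIGIT, stood at 96.5 ± 35.0 CPM in CKO and 94.3 ± 25.9 CPM in WT (edgeR adjusted p = 0.947). Cd200 and Cd47, whose products restrain myeloid cells, stood at 2010 ± 399 and 829 ± 165 CPM in CKO and at 2333 ± 97.1 and 962 ± 118 CPM in WT, and neither passed. At an unadjusted p under 0.05 in edgeR, 5 of the list were lower and 0 higher, against 13.2% and 15.4% of all genes. DESeq2 called 2 lower (Nectin2 and Timd4) and 0 higher, where it called 16.4% of all genes.

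Of 19 genes for the turnover, traffic and shedding of the members' products, 1 fell, 1 rose and 17 did not pass, with a median of 0.03. The background share called in either direction was 8.87%. At an unadjusted p under 0.05 in edgeR, 2 of the list were lower and 2 higher, against 13.2% and 15.4% of all genes. DESeq2 called 1 lower and 1 higher, where it called 16.4% of all genes. Adam10, a protease known to shed LAG-3 and ICOSL from the cell surface, stood at 28.0, 29.65, 37.4 and 35.0 CPM in the CKO libraries and at 8.49, 15.9, 17.8 and 22.4 CPM in the WT libraries. It rose with a log2 fold change of 1.01 ± 0.24 (SE; edgeR adjusted p = 0.0305), without overlap. Bag6, whose product binds the tail of TIM-3 in T cells, stood at 28.3, 14.5, 16.0 and 11.6 CPM in the CKO libraries and at 30.5, 43.4, 33.4 and 39.3 CPM in the WT libraries. It fell with a log2 fold change of -1.06 ± 0.25 (SE; edgeR adjusted p = 0.0286), and CKO D146 lay close to the lowest WT library. Adam10 and Bag6 were each called in 13 of 19 alternative fits, and neither was called without CKO D163, CKO D169, WT D150 or WT D154 or with either marker covariate. Over the 19 fits the log2 fold change ran from 0.80 to 1.22 for Adam10 and from -1.50 to -0.89 for Bag6. Cmtm6, which keeps PD-L1 at the cell surface, stood at 429 ± 60.9 CPM in CKO and 487 ± 97.9 CPM in WT, and Cd83, which protects CD86 from degradation, at 3255 ± 1156 CPM in CKO and 3517 ± 516 CPM in WT, and neither passed.

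Of 26 receptors, kinases and transcription factors known to control these genes, 2 fell, 1 rose and 23 did not pass, with a median of -0.08. The background share called in either direction was 8.87%. At an unadjusted p under 0.05 in edgeR, 5 of the list were lower and 5 higher, against 13.2% and 15.4% of all genes. DESeq2 called 3 lower (Ifnar2, Irf2 and Nfkb2) and 1 higher (Hif1a), where it called 16.4% of all genes. Ifnar2, a chain of the type I interferon receptor, stood at 73.2, 67.75, 55.4 and 54.6 CPM in the CKO libraries and at 108, 96.5, 111 and 86.4 CPM in the WT libraries. Ifnar2 fell with a log2 fold change of -0.68 ± 0.14 (SE; edgeR adjusted p = 0.0187), and the other chain gene, Ifnar1, did not pass at 121 ± 10.15 CPM in CKO and 107 ± 7.87 CPM in WT. Irf2, a transcription factor gene of the interferon response, stood at 58.6 ± 13.3 CPM in CKO and 96.2 ± 9.50 CPM in WT and fell by 0.71 on the log2 scale (edgeR adjusted p = 0.0256). Hif1a, a transcription factor known to act on the Cd274 promoter in hypoxia, stood at 236 ± 4.71 CPM in CKO and 168.9 ± 30.6 CPM in WT and rose by a log2 fold change of 0.48 (edgeR adjusted p = 0.0491), a call made in 7 of 19 alternative fits. Irf1, which carries interferon signals to Cd274, stood at 668 ± 77.2 CPM in CKO and 788 ± 66.0 CPM in WT and did not pass. By edgeR this list gave no call without CKO D163, WT D150 or WT D154, 1 without CKO D169 or WT D142 (Ifnar2) and 6 without WT D164. With the B cell marker covariate it gave 1, Rel, an NF-kappa-B subunit gene that was higher and is not among the 3 called in the main fit. With the cDC1 minus cDC2 covariate it gave 0. In the main fit Rel had a log2 fold change of 0.47 and did not pass. The other NF-kappa-B subunit genes of the list, Nfkb1, Nfkb2, Rela and Relb, went the other way, at -0.18, -0.41, -0.33 and -0.455, and did not pass either.

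The genes whose profiles over the 8 libraries were nearest to those of the called members were found by the root-mean-square distance between log2 CPM profiles, each centred on its own mean, among 8043 genes at a mean of 5 CPM or more. Near to Pdcd1lg2 was Sphk1, the sphingosine kinase 1 gene, at a distance of 0.084. Sphk1 stood at 90.2 ± 10.6 CPM in CKO and 153.7 ± 30.0 CPM in WT. Nearest to Lag3 were Asna1, which encodes the ATPase that delivers tail-anchored proteins to the endoplasmic reticulum, and Crlf2, a receptor chain gene for the cytokine TSLP, at distances of 0.16 and 0.163. Asna1 stood at 22.3 ± 5.199 CPM in CKO and 52.1 ± 5.66 CPM in WT, and Crlf2 at 17.95 ± 6.23 CPM in CKO and 42.4 ± 6.10 CPM in WT. These 3 genes were called lower in CKO, which largely follows from choosing them by their nearness to members called lower. The nearest profiles describe these 8 libraries, which fall into 2 groups.

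**Figure D5:**
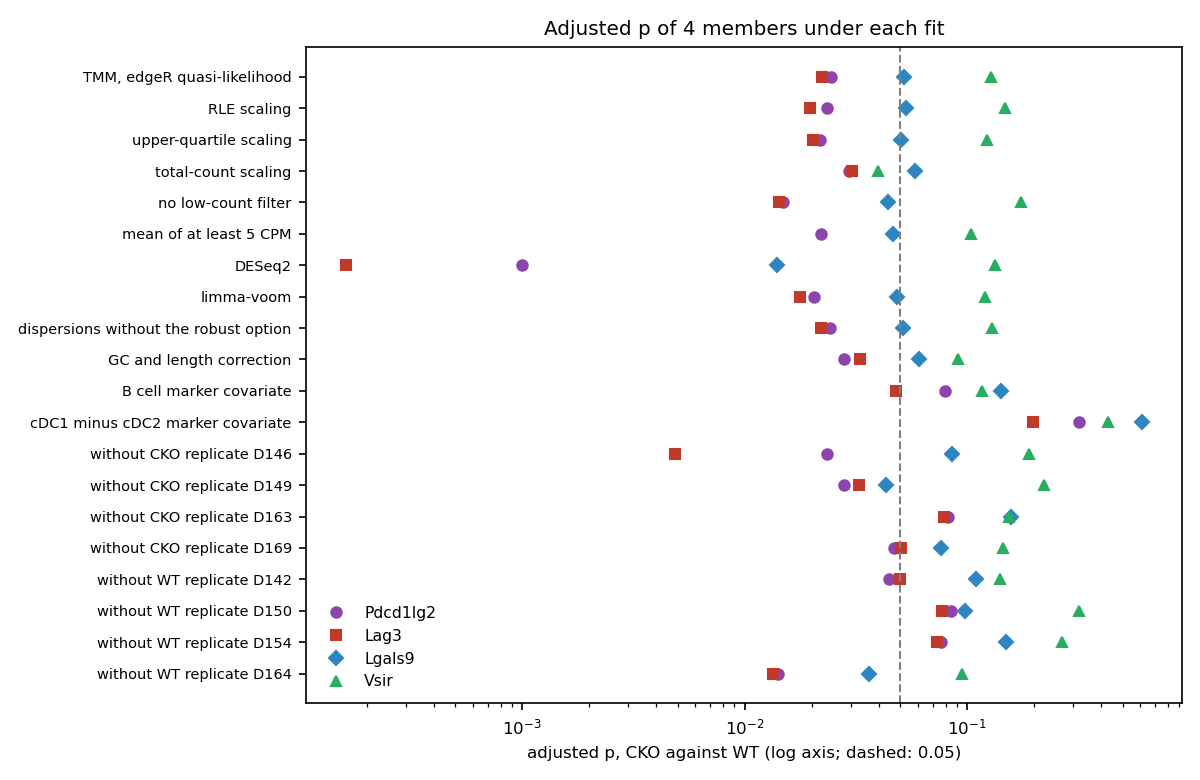
The adjusted p for CKO against WT of 4 members (log axis, dashed line at 0.05) is plotted for the main edgeR fit at the top and for each of 19 alternatives below it; Lag3 has no value with the minimum of 5 CPM, which it did not reach. Pdcd1lg2 and Lag3 lie right of the line without CKO D163, WT D150 or WT D154, and Lgals9 lies left of it in 6 of the 19 alternatives.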

How the data were processed

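RNA-seq was available for 8 sorted samples. Per the labels' protocols, cDNA was made with a low-input SMART-Seq kit before library construction. The submitters' processing notes name the tools fastp 0.23.2 and HISAT2 2.2.1 and the build mm10. The counting step, with its strand setting, is not given in the sources used here. In the table, as deposited, are raw whole-number counts per gene, not normalized by the authors, with gene position and length. Without strand information, antisense partners cannot be told apart, but none of the 10 members shares exonic bases with another gene of the table in GENCODE M21, whose coordinates were identical for 29769 of 31053 genes. A further 1 annotated gene overlaps a member but has no row in the count table, and its exons were not compared. No column was left unused.

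Groups followed the genotype in the sample titles. Library numbers are not shared between the groups, no batch or date is labelled, and the labels do not say that libraries came from separate animals, so a p-value reflects only how these samples vary, which may be technical variation. No library was a copy of another (lowest chi-square per degree of freedom 43.1).

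Counts were tested with edgeR 4.0.16 (R 4.3.3): filterByExpr by group, TMM scaling, robust quasi-likelihood F test, Benjamini-Hochberg adjustment over all 11702 genes kept. The SE is the log2 fold change divided by the square root of F, and intervals use the t distribution of the fit. For log2 CPM the prior count was 2. On counts simulated for the comparison of CKO with WT over 11595 genes, 68.4% of genes changed 2-fold and 92.9% of genes changed 4-fold were recovered. The changed genes were drawn at random over all levels and were far fewer than the 1038 called in the data. These shares therefore do not give the recovery to be had for the members. Alternatives, among them DESeq2 1.42.0 and limma-voom (limma 3.58.1), are reported at the end: RLE, upper-quartile or total-count scaling, a minimum mean of 5 CPM or no filter, non-robust dispersions, a per-library spline of GC content and length as an offset, B cell markers or cDC1 minus cDC2 markers as a covariate, and each library left out. Counts of calls in the pathway lists under each were added after seeing the data. Library totals began at 25304765 counts, and counting error mattered most for the scarce members Lag3 and Tnfrsf14.

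The 10 members and the lists were chosen with earlier results of these data known. The genes named were all members, the called genes of each list and 1 or 2 well-known genes of each list. The genomic neighbours of called members and the 2 genes nearest in profile to each called member were also named. Selplg, Timd4, Hmgb1, Rel and the other NF-kappa-B subunit genes were named after their values were seen. So were Irf4, the NK cell markers and the neighbours of Cd274 and Vsir. Itgax, H2-Ab1, Cd74, Ccr7, Xcr1 and Clec9a were also named after their values were seen. Sirpa, Batf3 and Irf8 were named because the cDC1 minus cDC2 covariate holds them. Some genes that this rule names are not reported here.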

Additional observations from a re-analysis of the deposited data

Results flagged for a closer look

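In each genotype, the highest and the lowest library of each member were compared with the rest of their group, 20 groups of 4 libraries in all, of which chance sets apart about 1 in 20. Pdcd1lg2 in CKO D163, at 158 CPM, lay far below the other 3 CKO libraries, with a gap to its nearest neighbour of 0.847 of the group's range. Without that library the log2 fold change of Pdcd1lg2 was -0.59 and its call was lost (edgeR adjusted p = 0.0821). Lag3 in CKO D146, at 3.63 CPM, lay far above the other 3 CKO libraries, with a gap of 0.917 of the range. Without that library Lag3 changed by -1.56 on the log2 scale (edgeR adjusted p = 0.00486).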

How the results depend on the processing

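Of 188 values of single members under the alternatives, 160 kept their direction and side of the threshold, 10 lost a call, 7 gained one and 11 changed sign. The count of all genes called, 1038, was 1975 with DESeq2, 358 with the B cell marker covariate and 0 by edgeR with the cDC1 minus cDC2 marker covariate, where 1864 genes had an unadjusted p under 0.05; it ran from 70 (without CKO D163) to 1468 (without WT D164) when 1 library was left out. The count of members called, 2, was 1 with the B cell marker covariate and 0 by edgeR with the cDC1 minus cDC2 covariate, where 1 member had an unadjusted p under 0.05; it ran from 0 to 3 when 1 library was left out, and 3 members were lower at an unadjusted p in each of the 3 such fits with 0 called. The cause was not tested. The cDC1 minus cDC2 covariate differed with genotype, at -0.55 to 0.18 in CKO and 0.08 to 0.40 in WT on the log2 scale. Among its genes is Cd4, itself called higher in CKO on 5 to 55 counts per library. The share of Cd4 in the covariate's difference was not tested. Signs changed for uncalled members: total-count scaling gave log2 fold changes of 0.047 for Cd274, 0.072 for Cd80 and 0.097 for Tnfrsf14, the B cell covariate 0.092 for Cd274 and 0.106 for Cd80, and the GC and length correction -0.019 for Havcr2 and 0.14 for Tnfrsf14. With 1 library left out, Cd80 ran from -0.188 to 0.009 (positive without CKO D169), Havcr2 from -0.114 to 0.182 (negative without CKO D149 or WT D154) and Tnfrsf14 from -0.24 to 0.08 (positive without WT D164). Total-count scaling moved the median of all genes to 0.19, against 0.03, and gave 1079 higher and 311 lower genes, against 503 and 535. No paired analysis was possible because the groups share no replicate number.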
